A study of Rattus norvegicus with 12 samples.

Results

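A set of 10 genes that carry inflammasome signalling, pyroptosis and necroptosis was followed across 4 groups of neonatal rat ventricular myocytes (NRVMs). They were the rows whose symbol is Casp1, Casp4, Casp8, Nlrp3, Pycard, Gsdmd, Il1b, Il18, Ripk3 or Mlkl, 10 of the 18483 genes in the files. NRVMs are primary heart muscle cells from newborn Sprague-Dawley rats, here enriched on a Percoll gradient. They were transfected with a negative control siRNA (siNeg) or with a single siRNA sequence against the zinc importer gene Slc39a2 (siSlc39a2), and either left unstimulated or treated with phenylephrine (PE), an alpha-adrenergic agonist that makes myocytes grow. PE was given for 36 h per the labels, starting 12 h after transfection, while the study's general culture methods give a longer time. Each group (siNeg, siNeg PE, siSlc39a2 or siSlc39a2 PE) had 3 samples.

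An inflammasome is a protein platform in which a sensor such as NLRP3 recruits the adaptor ASC, the product of Pycard, and through it activates caspase-1. Caspase-1 matures the cytokines IL-1beta and IL-18 and cleaves gasdermin D, which then forms pores in the plasma membrane, and the resulting lytic death is called pyroptosis. Caspase-4 (the rodent caspase-11) cleaves gasdermin D directly after sensing intracellular lipopolysaccharide. In necroptosis the kinase RIPK3 phosphorylates MLKL, which breaks the membrane, and caspase-8 holds this route in check. Many of these genes are known to respond to interferons and to NF-kappaB. All of them act mainly through cleavage, assembly or phosphorylation of proteins, which RNA levels do not measure.

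The libraries held 24065539 to 28603854 expected read counts each. Slc39a2 itself had 50, 50 and 59 counts in siNeg, 95, 198 and 182 in siNeg PE, 21, 11 and 2 in siSlc39a2 and 31, 25 and 38 in siSlc39a2 PE. It was lower in every knockdown sample than in any sample of the matching siNeg group (log2 fold change -2.35 ± 0.46 (SE), adjusted p = 0.00098 without PE, edgeR). Levels below are counts or counts scaled to library size (CPM, mean ± SD, n = 3), and fold changes are on the log2 scale. A gene was called changed when its log2 fold change exceeded 1 in size and its adjusted p was below 0.05 in edgeR's quasi-likelihood test over 13967 genes. Of the 10 genes 8 passed the filter on low counts, and Il1b and Il18 did not. Casp1 passed only through the knockdown groups, where it was high, since 0 of the 6 siNeg and siNeg PE samples reached the filter's CPM cutoff. Nlrp3 passed through 1 of these 6 and 2 of the 6 knockdown samples. Casp1 had to differ to be tested, so it is described here by its counts and gives no support to a count of called genes.

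Of the 7 tested genes other than Casp1, the 5 genes Casp4, Casp8, Gsdmd, Ripk3 and Mlkl were called higher after Slc39a2 knockdown, with and without PE, and none was called lower. Casp1 lay above the siNeg level in every knockdown sample. Among all 13967 tested genes 4.57% were called higher in siSlc39a2 against siNeg and 5.21% lower. Of the 13535 genes that did not need the knockdown samples to pass the filter, 3.45% were called higher. In siSlc39a2 PE against siNeg PE 6.03% of all tested genes were called higher and 5.58% lower, and 4.89% of the 13535 were called higher. In siSlc39a2 against siNeg the median log2 fold change was 1.25 over the 7 genes and -0.02 over all tested genes. Nlrp3 was at the edge of detection in every group. Pycard rose less than the limit of 1 without PE, and with PE its log2 fold change after knockdown was -0.01. In the comparisons of PE 1 of the 8 genes, Pycard, was called, and it fell. Among all tested genes 3.8% were called higher and 2.8% lower by PE with siNeg, and 6.34% higher and 4.17% lower after knockdown.

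**Figure D1:**
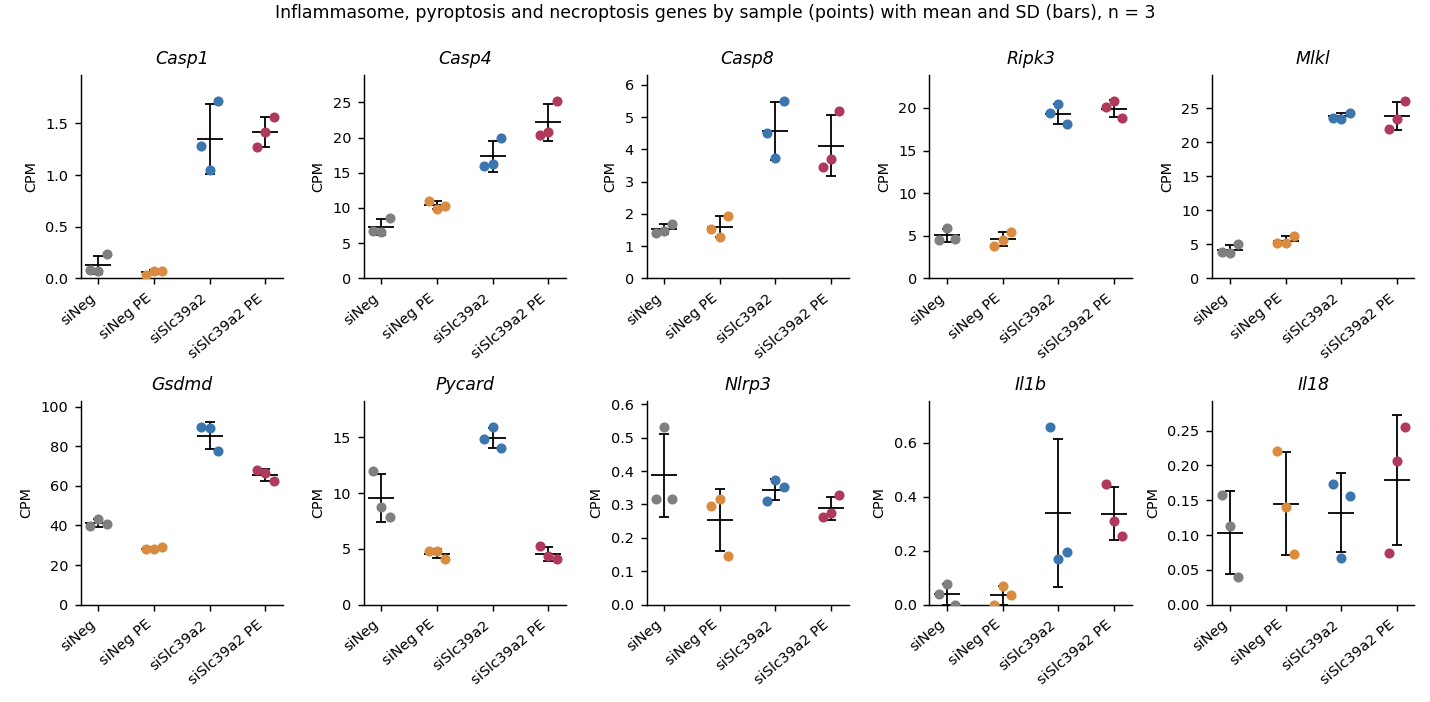
Level of each of the 10 genes in CPM (y axis, linear, from 0, its own scale in each panel) in the 4 groups (x axis), with 1 point per sample and bars for mean and SD, n = 3. Casp1, Casp4, Casp8, Ripk3, Mlkl and Gsdmd sit higher in both knockdown groups than in both siNeg groups, while Pycard is lowest in the 2 PE groups.

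The promoters of 3 genes that rose, Casp1, Ripk3 and Mlkl, with that of Pycard for comparison, are shown because several of these genes moved together. They are the 300 bases from 250 before to 50 after the annotated start, from the RefSeq table of GRCr8, a newer build than the Rnor_6.0 of the files. Windows matched for 7 of the 10 genes: Casp1, Nlrp3, Pycard, Il1b, Il18, Ripk3 and Mlkl. Capitals mark matches to 1 of 3 motifs searched on both strands.

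Casp1, chr8:10872580-10872879, plus strand: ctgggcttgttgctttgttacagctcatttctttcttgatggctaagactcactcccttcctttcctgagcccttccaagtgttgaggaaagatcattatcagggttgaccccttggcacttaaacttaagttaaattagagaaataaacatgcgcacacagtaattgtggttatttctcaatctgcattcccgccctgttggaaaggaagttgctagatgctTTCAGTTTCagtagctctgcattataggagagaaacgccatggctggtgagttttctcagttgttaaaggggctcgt

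Ripk3, chr15:33261976-33262275, minus strand: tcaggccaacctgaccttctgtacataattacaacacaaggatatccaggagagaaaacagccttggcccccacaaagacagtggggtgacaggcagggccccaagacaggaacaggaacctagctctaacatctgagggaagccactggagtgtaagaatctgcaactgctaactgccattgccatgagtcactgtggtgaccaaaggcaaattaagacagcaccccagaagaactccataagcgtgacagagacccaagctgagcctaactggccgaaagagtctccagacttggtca

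Mlkl, chr19:56213809-56214108, minus strand: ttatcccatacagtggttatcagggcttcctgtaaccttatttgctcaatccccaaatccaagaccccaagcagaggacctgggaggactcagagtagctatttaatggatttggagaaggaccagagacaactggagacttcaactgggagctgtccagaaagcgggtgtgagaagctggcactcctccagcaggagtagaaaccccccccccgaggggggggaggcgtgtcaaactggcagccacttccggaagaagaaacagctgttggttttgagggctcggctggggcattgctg

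Pycard, chr1:192033370-192033669, minus strand: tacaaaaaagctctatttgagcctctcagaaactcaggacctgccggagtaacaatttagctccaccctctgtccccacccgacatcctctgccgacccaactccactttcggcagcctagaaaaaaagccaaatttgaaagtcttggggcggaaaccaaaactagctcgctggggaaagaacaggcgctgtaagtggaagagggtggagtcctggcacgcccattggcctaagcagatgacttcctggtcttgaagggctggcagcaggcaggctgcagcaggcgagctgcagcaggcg

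The letters GAAANNGAA, a repeated core of the kind bound by interferon regulatory factors, occur in 9.71% of 33365 distinct promoter windows and here in Casp1, as TTCAGTTTC on the other strand from -27 to -19 of the start. TTCNNNGAA, the STAT type, occurs in 8.88% of windows and here in Nlrp3, at -121 to -113. GGGANNTTC, an NF-kappaB type, occurs in 4.05% of windows and in none of the 7. A match is a description of letters in this window and not a bound site. No other match was found among the 7 windows.

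The core genes of necroptosis rose most among the genes with ample counts. Mlkl, the pore-forming effector, had 100, 99 and 128 counts in the siNeg samples against 684, 692 and 625 in those with siSlc39a2. It went from 4.25 ± 0.70 to 23.8 ± 0.49 CPM, a log2 fold change of 2.49 ± 0.12 (SE, adjusted p = 3.89e-09, edgeR). With PE it had 140, 150 and 172 counts in siNeg PE and 591, 679 and 717 in siSlc39a2 PE, which gave a log2 fold change of 2.09 ± 0.12 (adjusted p = 1.73e-08). The knockdown samples lay above all siNeg samples, and the 2 knockdown groups overlapped each other. Ripk3, the kinase upstream of MLKL, had 115, 157 and 119 counts in the siNeg samples against 560, 603 and 464 in those with siSlc39a2. Its log2 fold change was 1.93 ± 0.13 (adjusted p = 1.12e-07). In the PE groups Ripk3 had 103, 129 and 148 counts with siNeg and 538, 603 and 519 with siSlc39a2, giving a log2 fold change of 2.12 ± 0.13 (adjusted p = 4.94e-08). Neither siNeg group overlapped a knockdown group. In the RefSeq table of the GRCr8 assembly Ripk3 overlaps Nfatc4, and whether the counting used strand is not given in the sources used here, so reads in the overlap cannot be assigned with certainty. Nfatc4 itself was lower after knockdown (log2 fold change -0.65 ± 0.11, adjusted p = 0.000307). Ripk1, the kinase that can recruit RIPK3, had a log2 fold change of 0.09 (adjusted p = 0.594).

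Caspase-8, which restrains RIPK3 and can also start apoptosis, rose from 36, 39 and 43 counts in siNeg to 130, 110 and 141 in siSlc39a2. That was 1.53 ± 0.14 against 4.57 ± 0.89 CPM and a log2 fold change of 1.57 ± 0.22 (adjusted p = 7.74e-05, edgeR). With PE Casp8 had 42, 37 and 53 counts in siNeg PE and 93, 107 and 143 in siSlc39a2 PE, which gave a log2 fold change of 1.37 ± 0.22 (adjusted p = 0.000189). The siNeg and knockdown samples did not overlap in either condition. Casp8 overlaps its neighbour Cflar in GRCr8, and Cflar, which encodes the caspase-8 partner and inhibitor FLIP, rose as well (1.96 ± 0.16, adjusted p = 7.37e-07).

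The inflammatory caspases both rose. Casp1 was almost absent without knockdown, with 2, 2 and 6 counts in siNeg and 1, 2 and 2 in siNeg PE, and had 37, 31 and 44 counts in siSlc39a2 and 34, 41 and 43 in siSlc39a2 PE. Its promoter window is the one printed above with an interferon-type match, which 9.71% of all windows also held. The windows of Ripk3 and Mlkl, which rose too, had none, and any part of the match in the rise was not tested. With so few counts in the siNeg groups the ratio of summed counts, scaled to library size, is given with its exact 95% counting interval, which covers counting error only. It was 10.3 (5.38 to 22.0) for 112 against 10 counts without PE and 23.5 (9.78 to 73.6) for 118 against 5 counts with PE. No siNeg sample reached the lowest knockdown sample. In GRCr8 Casp1 overlaps the non-coding gene LOC134479989. Casp4 was already well expressed, with 171, 173 and 218 counts in the siNeg samples against 460, 478 and 510 with siSlc39a2, giving a log2 fold change of 1.25 ± 0.13 (adjusted p = 6.76e-06). With PE it had 299, 280 and 281 counts in siNeg PE and 547, 604 and 692 in siSlc39a2 PE, which gave a log2 fold change of 1.09 ± 0.13 (adjusted p = 1.52e-05). All 4 groups of Casp4 were separate from each other, in the order siNeg, siNeg PE, siSlc39a2, siSlc39a2 PE. Casp4 with PE lies close to the limit and fell below it without siSlc39a2 PE replicate 3 (0.99).

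Gsdmd, which encodes the pyroptotic pore, had the highest counts of the set. It had 1004, 1142 and 1038 counts in the siNeg samples against 2588, 2627 and 1992 in those with siSlc39a2, or 41.3 ± 1.8 and 85.4 ± 6.7 CPM, and its log2 fold change was 1.05 ± 0.07 (adjusted p = 1.17e-07, edgeR). With PE the counts were 761, 794 and 793 in siNeg PE and 1821, 1931 and 1711 in siSlc39a2 PE, which gave a log2 fold change of 1.21 ± 0.07 (adjusted p = 3.61e-08). The 4 groups did not overlap. Without PE the value passed the limit of 1 narrowly.

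Pycard, the ASC adaptor, was not called in either comparison of knockdown. It had 304, 231 and 200 counts in the siNeg samples against 430, 469 and 360 in those with siSlc39a2, giving a log2 fold change of 0.65 ± 0.15 (adjusted p = 0.00319, edgeR), which passed the p limit but not the size limit. By adjusted p alone 49.2% of all tested genes passed in siSlc39a2 against siNeg. With PE it had 131, 136 and 112 counts in siNeg PE and 141, 126 and 112 in siSlc39a2 PE, which gave a log2 fold change of -0.01 with a 95% interval of -0.36 to 0.35 (adjusted p = 0.98). The 2 PE groups overlapped, and both lay below all unstimulated samples. In siSlc39a2 PE against siNeg PE 6.03% of all tested genes were called higher and 5.58% lower, and 57.3% passed by adjusted p alone.

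Nlrp3, the sensor, was scarce, with 8, 14.2 and 8 counts in siNeg, 8, 9.29 and 4 in siNeg PE, 9, 10.8 and 9 in siSlc39a2 and 7.1, 8.14 and 9 in siSlc39a2 PE. Its counts were not whole numbers in every sample, as happens when reads are shared between loci, while the other 9 genes had whole counts throughout. The groups overlapped, and the log2 fold change was -0.17 (95% interval -0.92 to 0.58, adjusted p = 0.714) without PE and 0.18 (-0.64 to 1.00, adjusted p = 0.727, edgeR) with PE. A change smaller than these intervals was not detectable at this depth.

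The cytokine genes had too few counts to be tested. Il1b, which encodes the precursor of IL-1beta, had 1, 2 and 0 counts in siNeg, 0, 2 and 1 in siNeg PE, 19, 5 and 5 in siSlc39a2 and 12, 9 and 7 in siSlc39a2 PE. Its ratio of summed counts was 8.86 (exact 95% counting interval 2.75 to 45.5) for 29 against 3 counts without PE and 9.28 (2.87 to 47.7) for 28 against 3 counts with PE. Every knockdown sample lay above every siNeg sample, although 1 sample, siSlc39a2 replicate 1, gave 19 of the 29 counts. The ratio was 4.66 without that sample and 17.5 without siNeg replicate 2, and with PE it was 18.3 without siNeg PE replicate 2. In the fit without the filter Il1b had an adjusted p of 0.0099 without PE and 0.00774 with PE (edgeR). Il18, which encodes the precursor of IL-18, had 4, 3 and 1 counts in siNeg, 6, 4 and 2 in siNeg PE, 5, 2 and 4 in siSlc39a2 and 2, 6 and 7 in siSlc39a2 PE. Its ratio was 1.26 (0.46 to 3.61) without PE and 1.24 (0.54 to 2.91) with PE, and the groups overlapped. A change in Il18 within these intervals was not detectable at this depth. Il18 overlaps Bco2 and Tex12 in GRCr8.

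**Figure D2:**
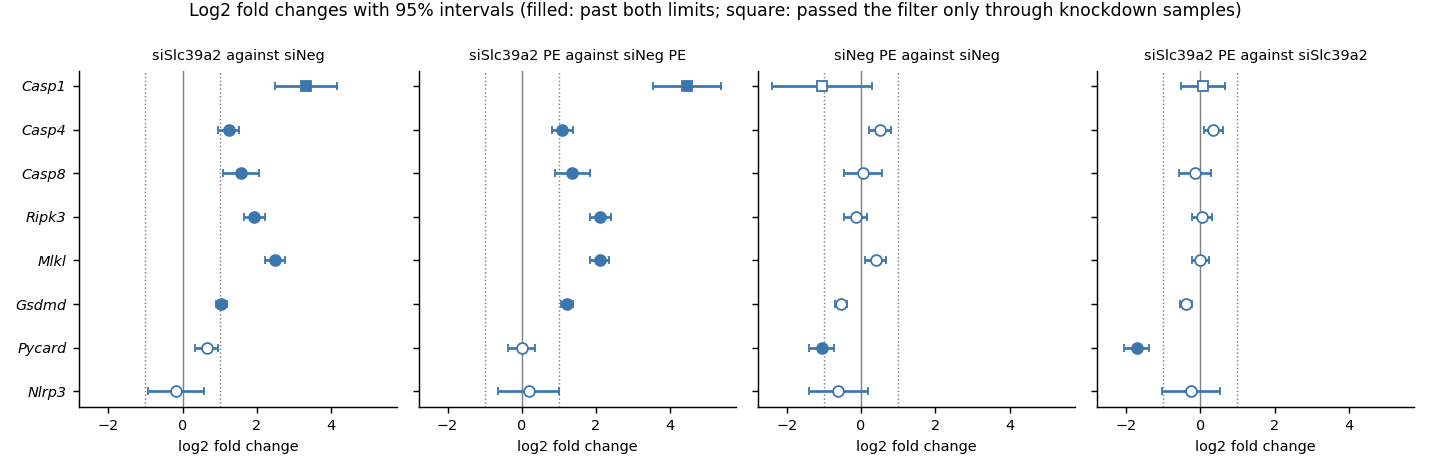
Log2 fold change (x axis) of the 8 tested genes (y axis) in the 4 comparisons, with 95% intervals; filled points passed both limits (dotted lines at -1 and 1), and the squares are Casp1, which passed the filter only through the knockdown samples. In the knockdown panels the filled points are Casp1, Casp4, Casp8, Ripk3, Mlkl and Gsdmd, and in the PE panels the filled point is Pycard.

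PE lowered Pycard both with the control siRNA and after knockdown. It fell from 9.55 ± 2.17 to 4.57 ± 0.40 CPM, a log2 fold change of -1.06 ± 0.16 (adjusted p = 0.000209, edgeR), and after knockdown from 14.9 ± 0.93 to 4.56 ± 0.62 CPM, a log2 fold change of -1.71 ± 0.16 (adjusted p = 2.54e-06). Of the 8 genes 1 was called in each of the comparisons of PE, against 3.8% of all tested genes higher and 2.8% lower with siNeg and 6.34% higher and 4.17% lower after knockdown. The call without knockdown rests on single samples, since it was -0.86 without siNeg replicate 1 and -0.99 without siNeg PE replicate 3. By adjusted p alone, which 49.7% of all tested genes passed, Casp4 (0.51 ± 0.13, adjusted p = 0.00764) and Mlkl (0.39 ± 0.13, adjusted p = 0.0225) were higher in siNeg PE and Gsdmd was lower (-0.54 ± 0.07, adjusted p = 0.000106). After knockdown, where 60% of all tested genes passed by adjusted p alone, Casp4 (0.35 ± 0.12, adjusted p = 0.0252) was higher and Gsdmd lower (-0.38 ± 0.07, adjusted p = 0.000634). The numbers of genes passing by adjusted p alone lay near or below these shares, and nothing is read from them. Ripk3 (-0.14, 95% interval -0.45 to 0.16), Casp8 (0.06, -0.45 to 0.57), Nlrp3 (-0.61, -1.40 to 0.18) and Casp1 (-1.05, -2.39 to 0.29) did not pass with siNeg, and for Casp1 and Nlrp3 the intervals are wide because the counts are low.

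Whether the knockdown effect differed with PE was tested as the difference of the 2 knockdown effects. None of the 8 genes passed both limits or the adjusted p limit in edgeR, which 3.61% of all tested genes passed, and DESeq2 also gave 0. Of the 8, 2 (Pycard and Mlkl) had an unadjusted p below 0.05 in edgeR. The share of all tested genes below that limit was not counted, so nothing is read from these 2. Pycard's knockdown effect was lower with PE by a log2 difference of -0.65 (95% interval -1.13 to -0.17, adjusted p = 0.15), and the adjusted p ranged from 0.0238 to 0.306 over 19 alternatives. It passed the p limit in 3 of them, at 0.0238 without siNeg replicate 1 (difference -0.85), 0.0346 with the replicate number as a block (-0.67) and 0.0474 with limma on log2(FPKM + 1) (-0.72). The result for Pycard thus depends on these choices. Mlkl had a difference of -0.39 (-0.76 to -0.03, adjusted p = 0.27). For Gsdmd the difference was 0.16 (-0.06 to 0.38), for Ripk3 0.19 (-0.21 to 0.59), for Casp4 -0.16 (-0.55 to 0.24), for Casp8 -0.21 (-0.88 to 0.46) and for Casp1 1.13 (-0.34 to 2.59).

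Compared per transcript length in the deposited FPKM values, Gsdmd, Pycard and Casp4 led the order in siNeg, siNeg PE and siSlc39a2. In siNeg Pycard (18.3 ± 3.6) and Gsdmd (17.3 ± 0.97) overlapped, Casp4 followed at 5.99 ± 1.03, and Ripk3 (2.6 ± 0.49) and Mlkl (2.09 ± 0.35) overlapped each other. Casp8 came next at 0.70 ± 0.07 FPKM, and Il18, Casp1, Nlrp3 and Il1b all had means below 0.2 and overlapped. In siSlc39a2 the order was Gsdmd (39.2 ± 2.4), Pycard (31.6 ± 1.4), Casp4 (15.7 ± 2.3), Mlkl (13 ± 0.31), Ripk3 (12 ± 0.63), Casp8 (2.07 ± 0.42) and Casp1 (1.07 ± 0.23), with no overlap between neighbours. In siSlc39a2 PE Pycard stood below Casp4, Mlkl and Ripk3, at 9.36 ± 1.13 FPKM.

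The other genes of these pathways were taken from 6 lists with 79 genes, of which 78 were in the files and 69 were tested. After knockdown 21 were called higher and 2 lower without PE, and 22 higher and none lower with PE. Of the 69 genes 5 passed the filter only through the knockdown groups, namely Aim2, Trim30, Zbp1, Tnf and Tnfsf10. All 5 were among the 21 and 4 among the 22, and they had to differ to be tested. Among the other 64 genes 16 (25% of them) were called higher without PE and 18 (28.1%) with PE, against 3.45% and 4.89% of the 13535 genes of all kinds that did not need the knockdown samples. The lists were chosen with earlier results of these data known, so these shares are a description and not a test. The median log2 fold change over the 64 genes was 0.33 without PE, against -0.02 over all tested genes. Without PE 3 of 9 tested sensors and activators were called higher, 7 of 9 brakes and guanylate-binding proteins, 1 of 10 other pore formers and executioner caspases, 1 of 10 IL-1 and IL-18 genes, 5 of 12 necroptosis triggers and receptors and 4 of 19 necroptosis brakes and effectors. Of these, 1 sensor, 1 gene of the second list and 3 triggers passed the filter only through the knockdown groups, which leaves 2 of 8, 6 of 8 and 2 of 9. All these shares are to be read against the 4.57% of all tested genes called higher and the 5.21% called lower, and nothing is read from the lists with 1 call in 10 genes.

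**Figure D3:**
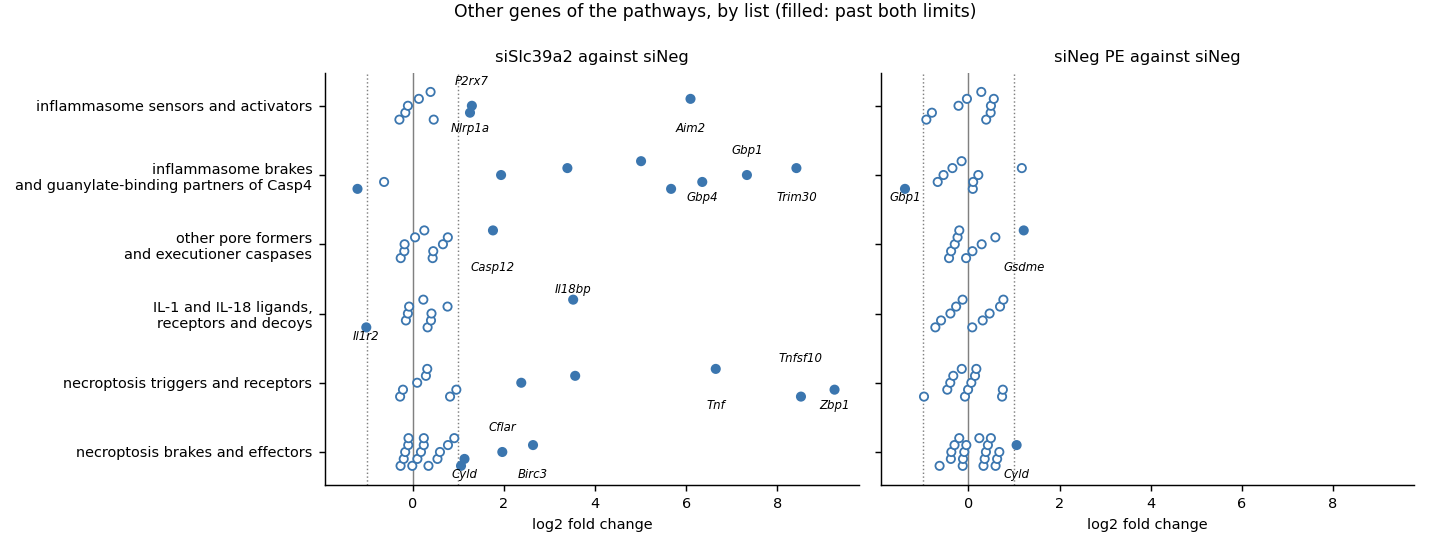
Log2 fold change (x axis) of the tested genes of 6 pathway lists (y axis) for knockdown without PE (left) and PE without knockdown (right); filled points passed both limits, and named genes are those picked by the naming rule. The right-hand panel shows 3 filled points, and the left-hand panel 23, 8 of them in the list of guanylate-binding partners and brakes. Aim2, Trim30, Zbp1, Tnf and Tnfsf10 passed the filter only through the knockdown groups.

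Several sensors and triggers that feed into caspase-1 and RIPK3 were almost absent without knockdown. Zbp1, the nucleic acid sensor that activates RIPK3, had 0, 0 and 4 counts in the siNeg samples against 1079, 1006 and 823 in those with siSlc39a2, a ratio of summed counts of 666 (exact 95% counting interval 260 to 2448). Aim2, the cytosolic DNA sensor that recruits ASC, had 2, 1 and 0 counts in the siNeg samples against 82, 69 and 96 in those with siSlc39a2, a ratio of 75.5 (25.5 to 368). Tnfsf10, which encodes the death ligand TRAIL, had 0, 0 and 1 counts in the siNeg samples against 197, 176 and 167 in those with siSlc39a2, a ratio of 495 (88.5 to 19590). All siNeg samples of these 3 genes lay far below the knockdown samples. Tnf, the ligand that starts RIPK1 signalling, had 7, 0 and 0 counts in the siNeg samples against 462, 0.04 and 328 in those with siSlc39a2, a ratio of 103.5 (49.98 to 258) that covers counting error only. Replicate 2 stood at the siNeg level, so the groups overlapped, and the read assignment of Tnf is uncertain. P2rx7, the ATP-gated channel upstream of NLRP3 (1.30 ± 0.27), and the sensor Nlrp1a (1.25 ± 0.22) also rose.

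Guanylate-binding proteins expose bacterial lipopolysaccharide to caspase-4. Gbp1 had 79, 98 and 56 counts in the siNeg samples against 13908, 13293 and 13592 in those with siSlc39a2, giving a log2 fold change of 7.33 ± 0.18 (adjusted p = 3.42e-12, edgeR), and Gbp4 rose as well, with a ratio of summed counts of 82.2 (57.8 to 121) for 2781 against 31 counts. Trim30 had 1, 2 and 3 counts in the siNeg samples against 785, 683 and 879 in those with siSlc39a2, a ratio of summed counts of 359 (164 to 978). Genes that oppose these routes rose as well: Il18bp, which encodes a decoy that binds IL-18, by 3.52 ± 0.12 (adjusted p = 6.61e-11), and Birc3, a ubiquitin ligase that holds RIPK1 in a survival complex, by 2.64 ± 0.13 (adjusted p = 3.34e-09). Cyld, a deubiquitinase that promotes the death complex, rose by 1.13 ± 0.17, and Casp12 rose by 1.76 ± 0.24. The decoy receptor Il1r2 (-1.02 ± 0.38, adjusted p = 0.0414) and Serpinb1a, named after its value was seen (-1.22 ± 0.43, adjusted p = 0.0331), were called lower. Both had few counts. Il1r2 had 14 to 19 in siNeg and 6 to 11 in siSlc39a2, and Serpinb1a 13 to 19 and 5 to 10. Neither was called with PE, where the ratio of summed counts of Il1r2 was 1.02 (0.64 to 1.62). The 2 are 2.9% of the 69 tested pathway genes, against 5.21% of all tested genes called lower.

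Of the same 69 genes 2 were called higher and 1 lower by PE with siNeg, where 3.8% of all tested genes were called higher and 2.8% lower. By adjusted p alone 12 were higher and 19 lower, where 49.7% of all tested genes passed. Gbp1 fell to 35, 33 and 27 counts (-1.39 ± 0.25, adjusted p = 0.000733, edgeR), Cyld rose (1.06 ± 0.17) and Gsdme, a gasdermin cut by caspase-3, rose (1.21 ± 0.47, adjusted p = 0.0486). After knockdown 5 were called higher and 4 lower with PE, where 6.34% of all tested genes were called higher and 4.17% lower. Among the 64 genes that did not need the knockdown groups to pass the filter, 5 were higher and 2 lower. These counts lie near the shares of all genes, and nothing is read from them. The 5 that rose were 1 of the other pore formers and executioner caspases, 2 IL-1 and IL-18 genes and 2 necroptosis brakes and effectors. The 4 that fell, named after their values were seen, were Gbp1 (-1.26 ± 0.13), Zbp1 (-1.35 ± 0.17), Tnfsf10 (-1.28 ± 0.22) and Mefv (-1.46 ± 0.18), the last encoding the sensor pyrin. Of these, Zbp1 and Tnfsf10 passed the filter only through the knockdown groups. Zbp1 then had 360, 356 and 412 counts in siSlc39a2 PE, against 0, 1 and 1 in siNeg PE.

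Markers of other cells in the culture moved with the groups. The summed level of the 15 of 16 macrophage markers in the files was 110 to 144 CPM in siNeg, 53.2 to 68.4 in siNeg PE, 59.0 to 72.0 in siSlc39a2 and 41.1 to 49.9 in siSlc39a2 PE. Most of that sum was Lyz2, with 76.73 CPM on average in siNeg and 35.65 in siSlc39a2. The other markers did not all move alike between these 2 groups. Cd68 (9.362 and 6.282 CPM) and Laptm5 (8.531 and 3.405) were lower. Aif1 (0.4783 and 1.355) was higher, and Cd14 (4.024 and 4.002) hardly moved. Of 14 macrophage markers tested 1 was called higher and 3 lower after knockdown without PE, and 3 were called lower with PE in siNeg. Among all tested genes 4.57% were called higher and 5.21% lower after knockdown without PE, and 2.8% lower with PE in siNeg. All marker counts here are to be read against these shares, and nothing is read from a single call. Fibroblast markers summed to 13860 to 18350 CPM in siNeg and 5338 to 5643 in siSlc39a2. That fall lay mostly in the collagen genes Col1a1 (10760 to 3351 CPM on average), Col3a1 (3534 to 1227) and Col1a2 (1746 to 541), and 4 of 8 fibroblast markers were called lower. Tcf21, a fibroblast transcription factor, had 27.4 CPM in siNeg and 34.7 in siSlc39a2, and the receptor gene Pdgfra had 41.2 and 44.7. Cardiomyocyte markers, all 8 of them present, summed to 43310 to 44500 CPM in siNeg and 34370 to 35720 in siSlc39a2. The myosin gene Myh6 went from 15860 to 7407 CPM and 1 of the 8 was called lower, while the troponin gene Tnnt2 had 5082 and 5366 CPM and the phospholamban gene Pln 2756 and 3372. Only 2 of 5 neutrophil markers and 2 of 5 T and NK cell markers were in the files. They summed to at most 0.236 CPM and 0.241 CPM in any sample, so these sums rest on few markers. The part of cell composition in the rise of Casp1, Casp4, Casp8, Gsdmd, Ripk3 and Mlkl and in the fall of Pycard was not tested, and in bulk RNA fewer cells of a type and less RNA per cell cannot be told apart.

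**Figure D4:**
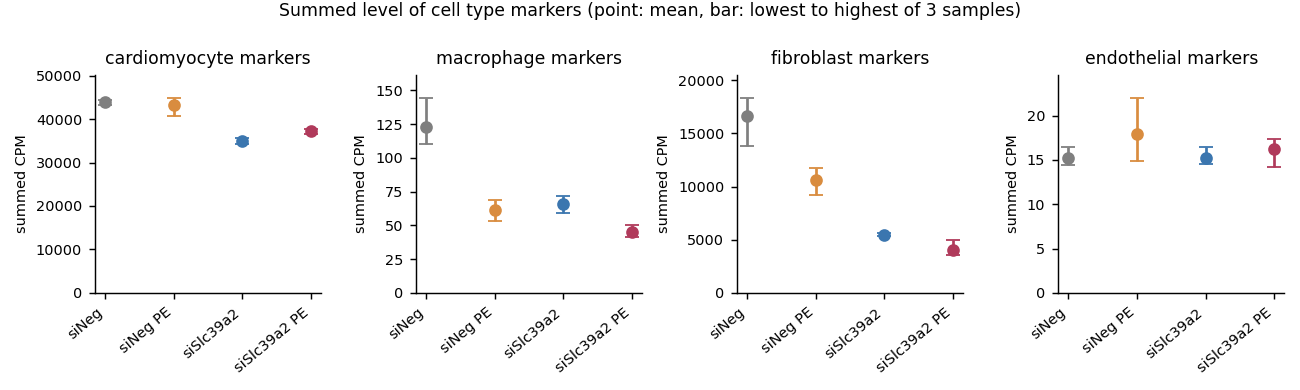
Summed CPM (y axis, linear, from 0) of the markers of 4 cell types in the 4 groups (x axis); points are means and bars run from the lowest to the highest of 3 samples. Macrophage and fibroblast sums were highest in siNeg and lowest in siSlc39a2 PE, and endothelial sums stayed between 14.2 and 22.0 in all groups.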

How the data were processed

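RNA-seq of NRVMs was deposited as 2 matrices over 18483 genes. The authors gave expected counts per gene, estimated from reads that can be shared between loci, and FPKM values, which the authors normalized for depth and transcript length. The submitters' processing notes name HISAT, Bowtie2 and the build Rnor_6.0; the counting program and its strand setting are not given in the sources used here. The authors' study used limma after between-array normalization, which is an alternative here.

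Counts were rounded and fitted in edgeR 4.0.16 (R 4.3.3) with TMM scaling, filterByExpr (13967 genes kept) and a quasi-likelihood F-test in 1 fit of 4 groups of 3 samples, with Benjamini-Hochberg adjustment over all genes tested. SE is the log2 fold change divided by the root of F. Scripts were tested on simulated counts. Total counts were 24065539 to 28603854 per library. Genes with few counts in the siNeg groups (Casp1, Il1b, Il18, Zbp1, Aim2, Tnfsf10, Trim30, Tnf and Gbp4) are given as ratios of summed counts with exact 95% intervals, covering counting error only. Motif letters were searched in RefSeq promoter windows of GRCr8. No 2 replicates agreed within sampling noise. The samples are biological replicates per the study's methods.

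All 10 genes are named; of each pathway list the 3 largest changes past both limits in siSlc39a2 against siNeg and in siNeg PE against siNeg, and for each tested gene the 3 genes with the highest Pearson r. Genes and lists were chosen with earlier results of these data known. Alternatives were DESeq2 1.42.0, RLE scaling, no filter, 2-group fits, a replicate block, limma 3.58.1 on log2 FPKM with a pseudocount of 1 or of 0.1 and on log2(count + 1), and leaving out each sample. Counts without genes that needed the knockdown samples to pass the filter (fewer than 3 of the 6 siNeg and siNeg PE samples at its CPM cutoff) were added after seeing the data.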

Additional observations from a re-analysis of the deposited data

How the results depend on the processing

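The number of called genes in siSlc39a2 against siNeg was 6 of 8, or 5 of 7 without Casp1, which had to differ to be tested. It became 3 with limma on log2(FPKM + 1), where Casp1 (0.88), Casp8 (0.75) and Gsdmd (0.98) fell below the size limit. The genes of all kinds called higher fell there too, from 638 to 328. Without any 1 sample the number was 6, Casp1 included. With PE the number was 6, or 5 without Casp1. On log2(FPKM + 1) it became 3, where Casp1 (0.96), Casp8 (0.66) and Casp4 (0.98) fell below the limit. The genes of all kinds called higher with PE fell there from 842 to 362. Without any 1 sample the number with PE was 5 to 6, Casp1 included. Casp4 with PE was also just under 1 on log2(count + 1) and 0.99 without siSlc39a2 PE replicate 3. For PE with siNeg it was 1, became 4 by adjusted p alone and 0 with limma on log2(FPKM + 1) and log2(FPKM + 0.1), where Pycard was -0.94 and -0.9985, and was 0 to 1 without any 1 sample, Pycard being -0.86 without siNeg replicate 1 and -0.99 without siNeg PE replicate 3. For PE after knockdown it became 3 by adjusted p alone. Of all tested genes 49.7% passed by adjusted p alone for PE with siNeg and 60% for PE after knockdown. Nothing is read from the 4 and the 3. Of 792 values of single genes under alternatives 754 kept direction and call, 12 lost the call, none gained it, and 26 changed sign. All 26 were values that had not been called. For PE after knockdown Mlkl was -0.0147 with DESeq2, -0.0147 with RLE scaling, -0.0158 without the filter, -0.0029 with the replicate block, -0.042 on log2(FPKM + 1), -0.045 on log2(FPKM + 0.1), -0.081 on log2(count + 1), and -0.067 to 0.033 without 1 sample. Ripk3 there was -0.0062 on log2(FPKM + 1), -0.0067 on log2(FPKM + 0.1) and -0.032 on log2(count + 1). For PE with siNeg Casp8 was -0.082, -0.18 and -0.0025 on these 3 scales and -0.10 to 0.19 without 1 sample. Without 1 sample Casp1 and Casp8 for PE after knockdown ranged from -0.077 to 0.28 and from -0.35 to 0.0036, Nlrp3 from -0.30 to 0.13 for knockdown and from -0.085 to 0.38 for knockdown with PE, and Pycard for knockdown with PE from -0.12 to 0.068. The cause of these moves was not tested. Without siSlc39a2 replicate 1 the Il1b ratio of siSlc39a2 PE against siSlc39a2 went from 0.975 to 1.85, an alternative chosen after seeing the data.

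The groups share replicate numbers. Same-numbered deviations correlated by -0.01 to 0.025 for siNeg and siSlc39a2 (0 of 3 pairs over 0.1), 0.0039 to 0.32 for siNeg PE and siSlc39a2 PE (2 of 3), 0.053 to 0.315 for siNeg and siNeg PE (2 of 3) and -0.09 to 0.221 for siSlc39a2 and siSlc39a2 PE (1 of 3). In that order 2, 4, 4 and 2 of 6 samples correlated best with their own number. Not every pair exceeded 0.1 in any combination, so the numbers were not taken to pair the samples. With the replicate number as a block, the counts of called genes stayed at 6, 6, 1, 1 and 0, Casp1 being in both counts of 6. The difference of Pycard's knockdown effects then passed the p limit (adjusted p = 0.0346, edgeR), against 0.15 without the block and 0.0238 to 0.306 over its alternatives. Depth limits Nlrp3, Il1b and Il18, where a count of 3 corresponds to 0.102 to 0.118 CPM.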

Other observations

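The genes most like each of the 8 tested genes over the 12 samples, by Pearson r of log2 CPM, are a description with no test, since all genes share the 12 libraries and their 4 groups. Mlkl was most like Ripk2 (r = 0.997), which encodes the kinase downstream of the NOD sensors, Mx1 (0.997), an interferon-induced antiviral gene, and LOC100910885 (0.996). Ripk3 was most like RT1-CE13 (0.991), Ifit3 (0.989), also interferon-induced, and Hsh2d (0.989). Casp1 was most like Ptx3 (0.991), which encodes a secreted pattern recognition protein, Gtpbp8 (0.986) and Ttc27 (0.985). Casp4 was closest to Cept1 (0.992), Ddx18 (0.991) and Rnf14 (0.99), and Casp8 to Pcdh20 (0.98), Ptma (0.979) and Gpbp1l1 (0.977). Gsdmd was closest to Slc43a1 (0.99), Psmf1 (0.988) and Adcy2 (0.987), and Pycard to Tmem171 (0.989), Fam110b (0.987) and Rab20 (0.985). Nlrp3, with its low counts, reached only 0.796 with Arhgap4, 0.789 with Lilrb4 and 0.784 with Pard6a.

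Slc39a2 rose with PE in the control cells (log2 fold change 1.47 ± 0.36, adjusted p = 0.00541, edgeR) and also after knockdown (1.49 ± 0.48, adjusted p = 0.0172), where it stayed below its siNeg PE level in all 3 samples. Gbp5, which encodes another guanylate-binding protein, was named after its values were seen. It was the 1 gene of the 69 tested pathway genes whose knockdown effect differed with PE by adjusted p. The difference was -0.61 ± 0.15 (adjusted p = 0.0471, edgeR) and did not pass the size limit. Among all tested genes 3.61% passed by adjusted p in this way, so nothing is read from this count of 1.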
